A study of Mus musculus with 80 samples.

Results

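The fatty acid desaturases and elongases described here are Scd1, Scd2, Elovl2, Elovl3, Elovl5, Elovl6, Fads1 and Fads2, 8 of the 19995 genes in the deposited count tables. They were chosen by symbol, not by a measured value, though with earlier results of these data known, and all 8 had a row in both tables. Their RNA was measured in the liver of male mice of the B6C3F1 hybrid, whose age the labels give as 4 weeks. The plasticizer di(2-ethylhexyl)phthalate (DEHP), a peroxisome proliferator, was mixed into the feed of 16 mice, 4 at each of 0, 1500, 3000 and 6000 ppm, over 7 days, and these livers date from 2013. Dichloroacetic acid (DCA), an inhibitor of pyruvate dehydrogenase kinase, was added to the drinking water of 24 mice, 6 at each of 0, 1, 2 and 3.5 g/L, for a time that the labels leave out, and these livers date from 1994. Each animal gave 1 library from formalin-fixed, paraffin-embedded (FFPE) liver and 1 from frozen liver of mixed lobes, 80 libraries in all. The replicates of a dose were separate animals by their identifiers.

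Desaturases put a double bond into a fatty acyl-CoA, and elongases carry out the first step of the cycle that lengthens it in the endoplasmic reticulum. In liver, Elovl6 lengthens palmitate made by fatty acid synthase to stearate, and Scd1 turns both into monounsaturated fatty acids, which go mostly into triglycerides and other lipids. Fads2 and Fads1 desaturate the essential polyunsaturated fatty acids of the diet in turn, and Elovl5 and Elovl2 lengthen them between and after these steps, to arachidonic and docosahexaenoic acid. Several of these genes are known targets of the lipid-sensing factors PPAR alpha, LXR and SREBP-1c in mouse liver.

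The total counts were 16582951 to 29550616 per library in DEHP frozen liver, 11673034 to 18866106 in DEHP FFPE liver, 3067666 to 16890024 in DCA frozen liver and 109292 to 8434613 in DCA FFPE liver. In DCA FFPE liver 15 libraries, all those of 2 and 3.5 g/L and 3 of 1 g/L, held at most 653006 counts, and the row of ribosomal RNA (Rn45s) took a median of 56.5% of counts. In DCA frozen liver all controls were sequenced in 1 lane and all 3.5 g/L libraries in another, so that lane and dose cannot be told apart, and 3 libraries of 2 g/L came from a shallow lane with 3067666 to 3854949 counts. Hepatocyte markers (7 genes) summed to 63599 to 98453 CPM (counts scaled to library size) in DEHP frozen libraries and to 70740 to 133381 CPM in DCA frozen libraries. In 1 DCA control, animal 5, skeletal muscle markers summed to 957 CPM in frozen liver, and their part in the results was not tested beyond leaving that library out. Because whole liver was sequenced, fewer cells of a type and less RNA per cell cannot be told apart.

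Scd1 was the highest of the 8 genes per length and Scd2 the lowest. On the authors' FPKM scale, in untreated frozen liver of the DEHP study, Scd1 averaged 1732 FPKM, Elovl3 307, Elovl5 305, Elovl2 193, Fads2 149, Fads1 114, Elovl6 20.9 and Scd2 0.985 FPKM (n = 4). Of neighbours in this order, only Scd1 and Elovl3, Fads1 and Elovl6, and Elovl6 and Scd2 had ranges that did not overlap, so the order of the genes between Elovl3 and Fads1 was within the spread of the animals. The authors' RPKM table put Elovl5 above Elovl3, with overlapping ranges. In untreated frozen liver of the DCA study Scd1 averaged 440 FPKM and Elovl3 391 FPKM (n = 6), with overlapping ranges, and Elovl2, Elovl5, Fads2 and Fads1 followed at 174, 152, 149 and 122 FPKM. Elovl6 averaged 10.6 FPKM and Scd2 1.28 FPKM there.

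At the top doses Scd1 reached nearly the same level per length in both studies, 4393 FPKM at 6000 ppm DEHP and 4433 FPKM at 3.5 g/L DCA, in tables that were normalized separately. In the authors' RPKM tables it averaged 2980 ± 847 RPKM at 6000 ppm DEHP (SD, n = 4) and 2443 ± 168 RPKM at 3.5 g/L DCA (SD, n = 6), a wider gap. Of the FPKM summed over the 8 genes, Scd1 took 72.6% ± 2.78 at 6000 ppm DEHP, against 60.3% ± 4.26 in its controls (SD, n = 4 each). It took 80.4% ± 1.70 at 3.5 g/L DCA, against 29.0% ± 9.10 in its controls (SD, n = 6 each). The Elovl3 share fell to 1.24% ± 0.642 at 3.5 g/L DCA, against 27.8% ± 5.19 in controls. These shares are a description, without a test.

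**Figure D1:**
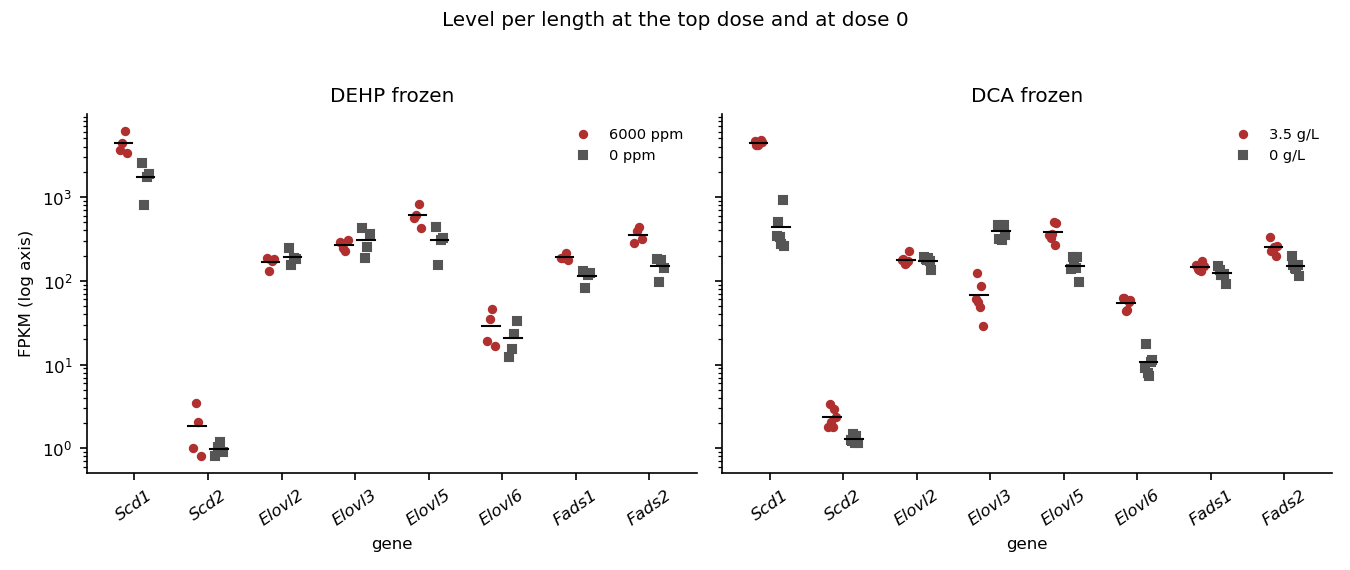
FPKM of the 8 genes on a log axis in each frozen library of the DEHP study (left) and the DCA study (right), at the top dose (red circles) and at dose 0 (grey squares), with group means as bars. Scd1 averaged 4393 FPKM at 6000 ppm DEHP against 1732 at 0 ppm, and 4433 FPKM at 3.5 g/L DCA against 440 at 0 g/L.

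Scd1, Scd2, Elovl3, Fads1 and Fads2 all lie on chromosome 19 of GRCm38, in the GENCODE annotation, Elovl2 lies on chromosome 13, Elovl5 on chromosome 9 and Elovl6 on chromosome 3. Scd1 spans 44394455 to 44407879 on the minus strand and Scd2 spans 44293674 to 44306864 on the plus strand. Fads1 spans 10182888 to 10196877 on the plus strand and Fads2 spans 10062765 to 10101746 on the minus strand, next to each other in opposite directions. Elovl3 overlaps Pitx3 on the other strand, and Elovl6 overlaps an antisense transcript and, on its own strand, Gm43072. Scd2 and Fads1 each overlap a microRNA gene on their own strand. The library kit keeps the strand, but the strand setting of the counting is not given in the sources used here.

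The sequences before the transcription starts are shown for the members that have a RefSeq entry and differ in their response, since Elovl5 and Fads2 were raised by both chemicals, Elovl6 by DCA alone in these tests and Elovl2 by neither at the top dose. Each window is 250 bases before a RefSeq start, 5′ to 3′ on the strand of the gene, on GRCm38.p6. These starts can differ from those of the GENCODE annotation above. The Fads2 window lies mostly inside the GENCODE span of Fads2, which reaches 10101746. The Elovl6 window runs past the GENCODE start of Elovl6 at 129532355. Which start is used in these livers was not tested. Scd1, Scd2, Elovl3 and Fads1 have no entry in the table. Elovl2 has a second start in the table, whose window is not printed. Capitals mark matches to 5 motifs searched on both strands, the CCAAT box (CCAAT, or ATTGG on the other strand), the sterol regulatory element (TCACNCCAC), the nuclear receptor core site (AGGTCA, or TGACCT), the E box (CACGTG) and the GC box (GGGCGG). In these windows no match overlapped another.
Elovl6, chr3:129532136-129532385, plus strand: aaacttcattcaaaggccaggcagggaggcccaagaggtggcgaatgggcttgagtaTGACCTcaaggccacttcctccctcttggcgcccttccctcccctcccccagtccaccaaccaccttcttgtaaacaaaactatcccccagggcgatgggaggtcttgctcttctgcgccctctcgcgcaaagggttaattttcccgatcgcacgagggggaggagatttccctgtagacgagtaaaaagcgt
Elovl5, chr9:77917115-77917364, plus strand: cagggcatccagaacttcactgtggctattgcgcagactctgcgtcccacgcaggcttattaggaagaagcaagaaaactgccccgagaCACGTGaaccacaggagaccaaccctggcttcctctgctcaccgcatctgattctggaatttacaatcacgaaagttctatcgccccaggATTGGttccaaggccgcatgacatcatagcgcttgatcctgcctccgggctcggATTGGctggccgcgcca
Fads2, chr19:10101504-10101753, minus strand: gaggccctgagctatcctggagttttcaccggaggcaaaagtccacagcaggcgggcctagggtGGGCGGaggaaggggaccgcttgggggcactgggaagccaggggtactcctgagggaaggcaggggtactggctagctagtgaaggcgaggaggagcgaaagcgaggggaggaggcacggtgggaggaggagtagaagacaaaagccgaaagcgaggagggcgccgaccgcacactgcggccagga
Elovl2, chr13:41220404-41220653, minus strand: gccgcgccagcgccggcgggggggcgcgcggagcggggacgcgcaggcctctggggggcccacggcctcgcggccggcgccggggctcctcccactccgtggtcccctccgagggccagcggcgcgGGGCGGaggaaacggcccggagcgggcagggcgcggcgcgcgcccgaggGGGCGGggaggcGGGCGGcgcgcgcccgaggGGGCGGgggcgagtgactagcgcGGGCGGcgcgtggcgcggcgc

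The Elovl6 window held 1 nuclear receptor core site, at position -193 from the start. The Elovl5 window held 1 E box at -161 and 2 CCAAT boxes at -71 and -17, the Fads2 window 1 GC box at -186 and the printed Elovl2 window 5 GC boxes between -124 and -21. The window of the other Elovl2 start (chr13:41220163-41220412) held 0 matches and was 79.6% G and C. The sterol regulatory element letters were in none of these windows. Over 32851 windows of the same length, a CCAAT box was in 33.8%, a GC box in 32.7%, a nuclear receptor core site in 14%, an E box in 6.02% and the sterol regulatory element in 1.05%. A match describes letters and does not show that a factor binds there. The printed Elovl2 window was 87.2% G and C, against 64.8% for Fads2, 56.4% for Elovl6 and 55.6% for Elovl5.

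In frozen liver DEHP raised the same 4 genes at each dose: Scd1, Fads2, Fads1 and Elovl5. Genes were called at a Benjamini-Hochberg adjusted p under 0.05 over all genes tested with edgeR's quasi-likelihood test. Of the 8 genes, 4 were raised and 0 lowered at 1500 ppm, where 6.48% of 13802 genes were called, at 3000 ppm, where 14.7% were called, and at 6000 ppm, where 11.8% were called. The median log2 fold change of the 8 genes was 0.59, 0.48 and 0.76 at 1500, 3000 and 6000 ppm, beside -0.03 at each dose over all genes. None of the 8 genes was called between 3000 and 1500 ppm or between 6000 and 3000 ppm, comparisons in which 0% of genes were called by edgeR (2122 and 1746 genes at an unadjusted p under 0.05). Among the 8, Fads2 had an unadjusted p of 0.0202 and 0.0122 in these comparisons, and DESeq2 called 51 and 21 of all genes and 0 of the 8.

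Scd1, the main desaturase of saturated fatty acids in adult liver, had 11921, 8592, 8935 and 4148 CPM in frozen controls (animals 32A, 45C, 63A and 75A). It had 19317, 22836, 24601 and 28538 CPM at 1500 ppm (3A, 40A, 60A and 72B), 8698, 20185, 18029 and 25440 CPM at 3000 ppm (35A, 67C, 71A and 9A) and 15868, 20352, 16815 and 29348 CPM at 6000 ppm (29B, 44A, 64C and 8C). All animals of 1500 and 6000 ppm lay above every control, and at 3000 ppm animal 35A lay among the controls. The log2 fold change was 1.504 ± 0.32 (SE, adjusted p = 0.0116), 1.11 ± 0.32 (adjusted p = 0.0285) and 1.29 ± 0.32 (adjusted p = 0.0149) at 1500, 3000 and 6000 ppm. Scd2, an isoform known mainly from brain and young liver, had 4.35, 18.3, 5.35 and 11.1 CPM at 6000 ppm, against 4.29, 6.72, 4.93 and 5.94 CPM in controls. Its 6000 ppm group split into 2 animals above every control (44A and 8C) and 2 among them, with a log2 difference of 0.84 ± 0.35 (adjusted p = 0.139, and 0.0307 without 29B).

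Scd2 values are uncertain, because Scd2 counts were 0.0274 to 0.0897% of Scd1 counts at 6000 ppm, and 3.97% of the 50-base words of Scd2 transcripts also occur in other genes, most often Scd1. The shared part was 4.56% for Scd1, 3.98% for Elovl6, 0.152% for Fads2 and 0% for the other members. How the authors' counting divided such reads was not tested.

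Fads2, which carries out the first desaturation of linoleic and alpha-linolenic acid, had 265, 274, 214 and 153 CPM in frozen controls. It had 430, 501.8, 546 and 532 CPM at 1500 ppm, 347, 304, 364 and 441 CPM at 3000 ppm and 455, 560, 410 and 647 CPM at 6000 ppm. Every treated animal lay above every control, and 3 of the 4 animals at 3000 ppm lay below every animal at 1500 and 6000 ppm. The log2 fold change was 1.15 ± 0.18, 0.68 ± 0.18 and 1.19 ± 0.18 (SE) at 1500, 3000 and 6000 ppm (adjusted p = 0.00151, 0.0189 and 0.000472).

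Fads1, which carries out the later desaturation that yields arachidonic acid, had 444, 415, 423 and 295 CPM in frozen controls. It had 628, 691, 666 and 659 CPM at 1500 ppm, 449, 541, 653 and 745 CPM at 3000 ppm and 590, 607, 618 and 716 CPM at 6000 ppm. All 12 treated animals lay above every control, 35A by the smallest margin, and the log2 fold change was 0.74 ± 0.15, 0.60 ± 0.15 and 0.68 ± 0.15 (adjusted p = 0.00851, 0.0152 and 0.00772). Elovl5, the elongase between the Fads steps, had 1182, 867, 888 and 450 CPM in frozen controls. It had 1429, 1953, 1744 and 2063 CPM at 1500 ppm, 1183, 2041, 1502 and 2155 CPM at 3000 ppm and 1139, 1587, 1492 and 2265 CPM at 6000 ppm. Animal 29B at 6000 ppm lay within the range of the controls and 35A at its upper edge, and the log2 fold change was 1.09 ± 0.27, 1.02 ± 0.27 and 0.94 ± 0.27 (adjusted p = 0.0226, 0.0169 and 0.0294).

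Elovl6, Elovl3 and Elovl2 were not called at any DEHP dose in frozen liver. Elovl6, which lengthens palmitate, had 97.1, 197, 108 and 268 CPM at 6000 ppm, against 71.6, 142, 194 and 95.8 CPM in controls, with 2 animals above every control and a log2 difference of 0.41 ± 0.32 (adjusted p = 0.476). Elovl3, an elongase of saturated and monounsaturated very long chains whose RNA is known to vary through the day in mouse liver, had 551, 439, 520 and 412 CPM at 6000 ppm, against 770, 478, 670 and 366 CPM in controls (log2 difference -0.25 ± 0.20, adjusted p = 0.491). The control range contained all 4 treated animals. Elovl2, which lengthens the longer polyunsaturated fatty acids, had 687, 480, 688 and 655 CPM at 6000 ppm, against 928, 734, 684 and 627 CPM in controls, with a log2 difference of -0.24 ± 0.18 (adjusted p = 0.453). Animal 44A alone lay below every control.

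**Figure D2:**
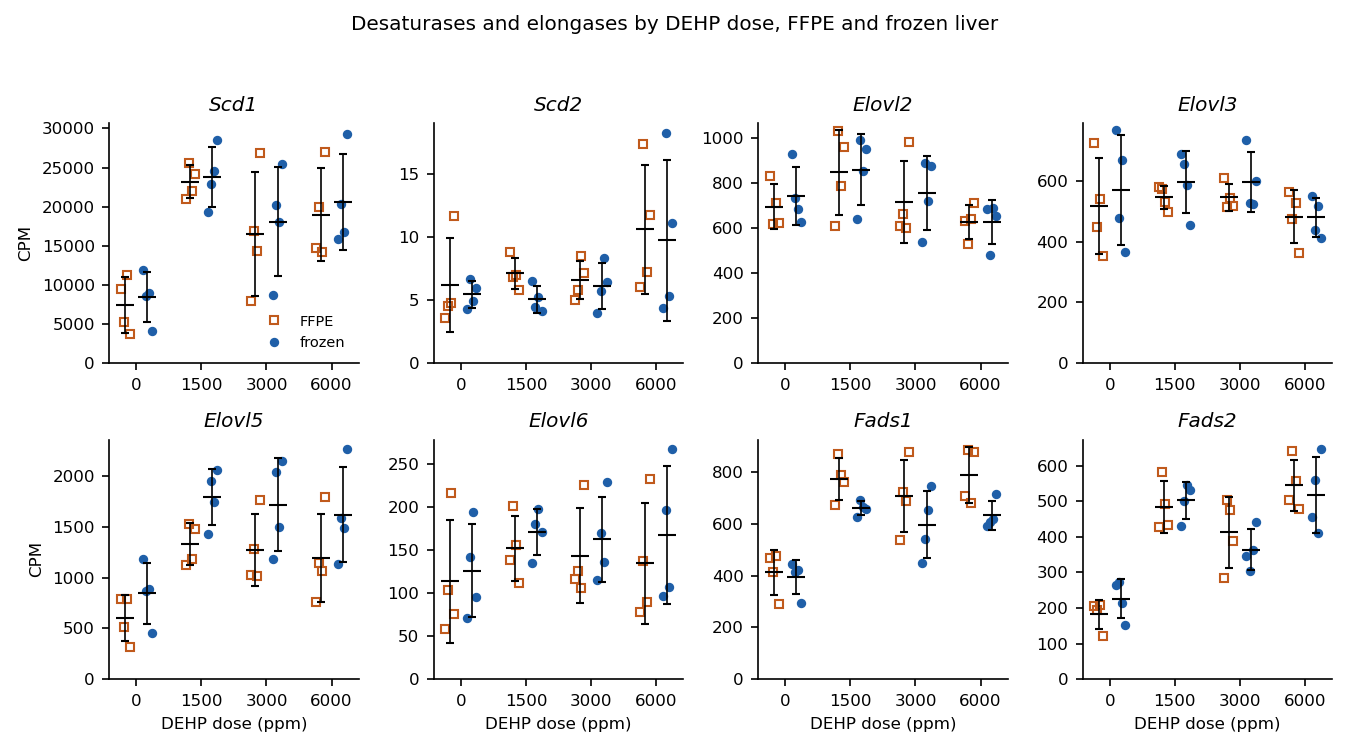
CPM of the 8 genes by DEHP dose in ppm, with 1 point per library, FFPE (squares) left of frozen (circles), and mean ± SD as bars (n = 4 per dose and preparation). Scd1, Fads2, Fads1 and Elovl5 are higher at 1500, 3000 and 6000 ppm than at 0 ppm in both preparations, without a further rise with dose, and animal 35A is the low Scd1 point at 3000 ppm in both.

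The sequencing run named in the column headers was spread unevenly over the doses. With run as a term in frozen liver, Fads2 was called at 1500 ppm (log2 1.29 ± 0.23, adjusted p = 0.0128) and 6000 ppm (1.30 ± 0.22, adjusted p = 0.00506). Scd1, Elovl5 and Fads1 were not called at any dose (adjusted p = 0.0874 to 0.292), nor was Fads2 at 3000 ppm (log2 0.76 ± 0.22, adjusted p = 0.0811). The log2 fold changes in that fit were 1.46, 0.89 and 1.15 for Scd1, 1.20, 0.97 and 0.94 for Elovl5 and 0.62, 0.52 and 0.57 for Fads1 at 1500, 3000 and 6000 ppm, with larger SEs, of 0.40 to 0.42 for Scd1, 0.33 to 0.35 for Elovl5 and 0.19 to 0.20 for Fads1. Within the run of controls 45C and 63A, Scd1 had 29348 CPM in 8C (6000 ppm) and 28538 CPM in 72B (1500 ppm), against 8592 and 8935 CPM in those controls. Within the run of controls 32A and 75A, it had 8698 CPM in 35A (3000 ppm), against 11921 and 4148 CPM in those controls. Leaving out 9A ended all 4 calls at 3000 ppm, leaving out 63A or 67C left 2 there, and leaving out 8C left 2 at 6000 ppm. Scd1 at 3000 ppm was lost without any 1 of controls 45C, 63A and 75A or animals 67C, 71A and 9A (adjusted p = 0.0514 to 0.0945), and at 6000 ppm without 8C (0.0603). Elovl5 was lost at 1500 ppm without any 1 of 45C, 63A, 75A, 40A, 60A and 72B (0.0517 to 0.0615), and at 6000 ppm without any 1 of 45C, 63A, 75A, 44A and 8C (0.0554 to 0.12).

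In FFPE liver of the same animals, DEHP raised Fads2, Fads1 and Elovl5 at each dose, and Scd1 at 1500 and 6000 ppm. Of the 8 genes, 4 were raised at 1500 ppm (5.86% of 13581 genes called), 3 at 3000 ppm (9.39%) and 4 at 6000 ppm (12.4%), with 0 lowered. Between neighbouring doses edgeR called 0 of the 8 genes and 0% of all genes (653 and 943 genes at an unadjusted p under 0.05), while DESeq2 called 0 and 1 of all genes and 0 of the 8, none of which had an unadjusted p under 0.05. Leaving out control 45C left 2 calls at 1500 ppm, where Scd1 was then at an adjusted p of 0.0519, and 2 at 6000 ppm. Leaving out 44A left 2 at 6000 ppm. With run as a term in FFPE liver 3, 4 and 4 of the 8 genes were called at 1500, 3000 and 6000 ppm. The share of all genes called in that fit is not given here. Elovl5 was no longer called at 1500 ppm (log2 1.01 ± 0.28, adjusted p = 0.0579), and Scd1 was now called at 3000 ppm (1.33 ± 0.28, adjusted p = 0.00937).

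Fads2 had 502.7, 641, 558 and 479 CPM in FFPE liver at 6000 ppm, against 207, 195, 208 and 122 CPM in FFPE controls, with every treated animal above every control. Its log2 fold change was 1.40 ± 0.20, 1.17 ± 0.20 and 1.57 ± 0.20 at 1500, 3000 and 6000 ppm (adjusted p = 0.000431, 0.00109 and 7.43e-05). Scd1 had 14644, 19967, 14181 and 26934 CPM in FFPE liver at 6000 ppm, against 9459, 5184, 11267 and 3762 CPM in FFPE controls. These groups did not overlap either, and the log2 fold change was 1.35 ± 0.36 (adjusted p = 0.0209). At 3000 ppm it was 1.15 ± 0.36 (adjusted p = 0.0533), but it was called without 35A, which had 7924 CPM (0.0219), without control 32A (0.0468) or 63A (0.0364), and by DESeq2 (0.00815). Fads1 rose by a log2 fold change of 0.93 ± 0.18 (adjusted p = 0.00236) and Elovl5 by 0.99 ± 0.29 (adjusted p = 0.0333) at 6000 ppm. At that dose Scd1 was lost without 45C, 75A or 44A (0.0561 to 0.0664) and Elovl5 without 45C, 75A, 44A, 64C or 8C (0.0556 to 0.0911). At the lower doses Elovl5 was lost without 45C or 75A at both, without 40A or 72B at 1500 ppm and without 9A at 3000 ppm (0.0656 to 0.0899). In both preparations 8C was the highest of its dose for Scd1 and Elovl6, 9A was so too, and 35A was the lowest of its dose for Scd1.

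None of the 8 responses to 6000 ppm was called as differing between FFPE and frozen liver, a comparison in which 0.0069% of 14497 genes were called by edgeR (267 genes at an unadjusted p under 0.05). The largest differences among the 8 were Fads2, whose log2 effect was 0.40 ± 0.21 higher in FFPE liver (unadjusted p = 0.069), and Fads1, at 0.26 ± 0.11 (unadjusted p = 0.0271), both with an adjusted p of 1. In control animals Elovl5 alone was called between FFPE and frozen liver in the fit with the animal as a block, in which 30.2% of genes were called. Its log2 difference was -0.41 ± 0.09 (adjusted p = 0.00248, and 0.368 without the block), and over all doses Elovl5 was lower in FFPE than in frozen liver in 16 of 16 animals, with a median ratio of 0.717 and a range of 0.592 to 0.885. Fads1 went the other way, lower in FFPE liver in 1 of 16 animals with a median ratio of 1.17, with a log2 difference of 0.14 ± 0.08 in control animals (adjusted p = 0.178). In a fit of the control animals only, 3 members were called, Elovl5, Fads1 (adjusted p = 0.0242) and Fads2 (adjusted p = 0.0268). The share of all genes called in that fit is not given here.

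DCA raised Scd1, Elovl6, Elovl5, Fads2 and Scd2 and lowered Elovl3 in frozen liver at 2 and 3.5 g/L. At 3.5 g/L, 5 of the 8 genes were raised and 1 lowered, where 43% of 13089 genes were called, so that a call of itself is common there. At 2 g/L, 5 were raised and 2 lowered (29.2% of genes called), and at 1 g/L, 0 were raised and 1 lowered (11.1%). The median log2 fold change of the 8 genes was 0.06, 0.46 and 0.73 at 1, 2 and 3.5 g/L, beside -0.01, -0.01 and -0.02 over all genes. Most of the step lay between 1 and 2 g/L, where 4 were raised and 2 lowered (16.5% of genes called). Scd1, Elovl5, Elovl6 and Fads2 were raised there, and Elovl3 and Elovl2 lowered. Elovl2 (adjusted p = 0.0109) was no longer called once run entered the fit (log2 -0.33 ± 0.12, adjusted p = 0.0866). Dropping the shallow lane also left Elovl2 uncalled in that comparison (log2 -0.23 ± 0.12, adjusted p = 0.241). Between 2 and 3.5 g/L, 2 were raised and 1 lowered (11.2%).

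Scd1 had a lowest, median and highest value of 1333, 1638 and 4725 CPM in frozen controls (n = 6 in each DCA group). It had 1841, 4006 and 5478 CPM at 1 g/L, 9602, 13893 and 23587 CPM at 2 g/L and 18689, 20453 and 21786 CPM at 3.5 g/L. All libraries of 2 and 3.5 g/L lay above all of 0 and 1 g/L, and the ranges of 0 and 1 g/L overlapped through controls 7 and 4 and animal 49 of 1 g/L. The log2 fold change was 3.21 ± 0.30 at 3.5 g/L, 9.25-fold (adjusted p = 5.98e-09), 2.81 ± 0.29 at 2 g/L (adjusted p = 1.06e-07) and 0.79 ± 0.27 at 1 g/L (adjusted p = 0.0608, but 0.00371 without control 7 and 0.0172 without animal 49). Scd2 had 6.46, 6.89 and 8.19 CPM in controls and 9.35, 11.8 and 17 CPM at 3.5 g/L, with every treated library above every control and a log2 fold change of 0.79 ± 0.15 (adjusted p = 0.000216). Its counts were 0.0442 to 0.0907% of the Scd1 counts at 3.5 g/L, with the same reservation on shared sequence.

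Elovl6 rose in steps with the DCA dose. Its lowest, median and highest values were 44.6, 60.7 and 109 CPM at 0 g/L, 68.7, 71.6 and 99.9 CPM at 1 g/L, 128, 140 and 219 CPM at 2 g/L and 254, 329 and 356 CPM at 3.5 g/L. The ranges of 2 g/L and 3.5 g/L overlapped neither each other nor those of the lower doses, and the log2 fold change was 2.24 ± 0.18 at 3.5 g/L, 4.74-fold (adjusted p = 6.13e-10), and 1.22 ± 0.18 at 2 g/L (adjusted p = 1.34e-05). Elovl6 also rose between 2 and 3.5 g/L, by 1.03 ± 0.17 (adjusted p = 0.000664), as did Fads1, by 0.31 ± 0.09 (adjusted p = 0.0289). The Fads1 call was lost without the shallow lane (log2 0.34 ± 0.11, adjusted p = 0.0586) and without any 1 of animals 75, 76, 77, 78, 98, 99 and 100 (0.0552 to 0.0835).

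Elovl3 moved the other way. It had 559, 726 and 852 CPM (lowest, median and highest) at 0 g/L, 501.3, 611 and 745 CPM at 1 g/L, 77.5, 237 and 268 CPM at 2 g/L and 49, 100 and 203 CPM at 3.5 g/L. Every library of 2 and 3.5 g/L lay below every library of 0 and 1 g/L. Elovl3 fell by 2.65 ± 0.27 on the log2 scale at 3.5 g/L (adjusted p = 2.61e-08) and by 1.75 ± 0.26 at 2 g/L (adjusted p = 1.81e-05), and it was lower at 3.5 than at 2 g/L by a log2 difference of -0.90 ± 0.26 (adjusted p = 0.0253). That step was lost without the shallow lane (log2 -0.78 ± 0.32, adjusted p = 0.131) and without any 1 of animals 76, 99 and 102 (0.0529 to 0.0567).

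Elovl5 had 276, 408 and 539 CPM at 0 g/L, 366, 497 and 541 CPM at 1 g/L, 695, 1026 and 1218 CPM at 2 g/L and 677, 920 and 1289 CPM at 3.5 g/L. The ranges of 2 and 3.5 g/L lay above both lower doses and nearly coincided, with log2 fold changes against 0 g/L of 1.22 ± 0.16 and 1.21 ± 0.16 (adjusted p = 5.43e-06 and 2.17e-06) and a difference between them of -0.00 ± 0.16 (adjusted p = 0.993). Fads2 had 170, 210 and 283 CPM at 0 g/L, 166, 184 and 191 CPM at 1 g/L, 241, 307 and 321 CPM at 2 g/L and 266, 336 and 462 CPM at 3.5 g/L. At 3.5 g/L, 5 of 6 libraries lay above every control, and the log2 fold change was 0.67 ± 0.11 (adjusted p = 3e-05). Fads1 had 425, 464 and 547 CPM at 3.5 g/L, against 325, 422 and 520 CPM in controls (log2 difference 0.14 ± 0.09, adjusted p = 0.218), and Elovl2 had 575, 622 and 834 CPM against 547, 696 and 741 CPM (-0.07 ± 0.11, adjusted p = 0.622). Both gave overlapping groups.

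**Figure D3:**
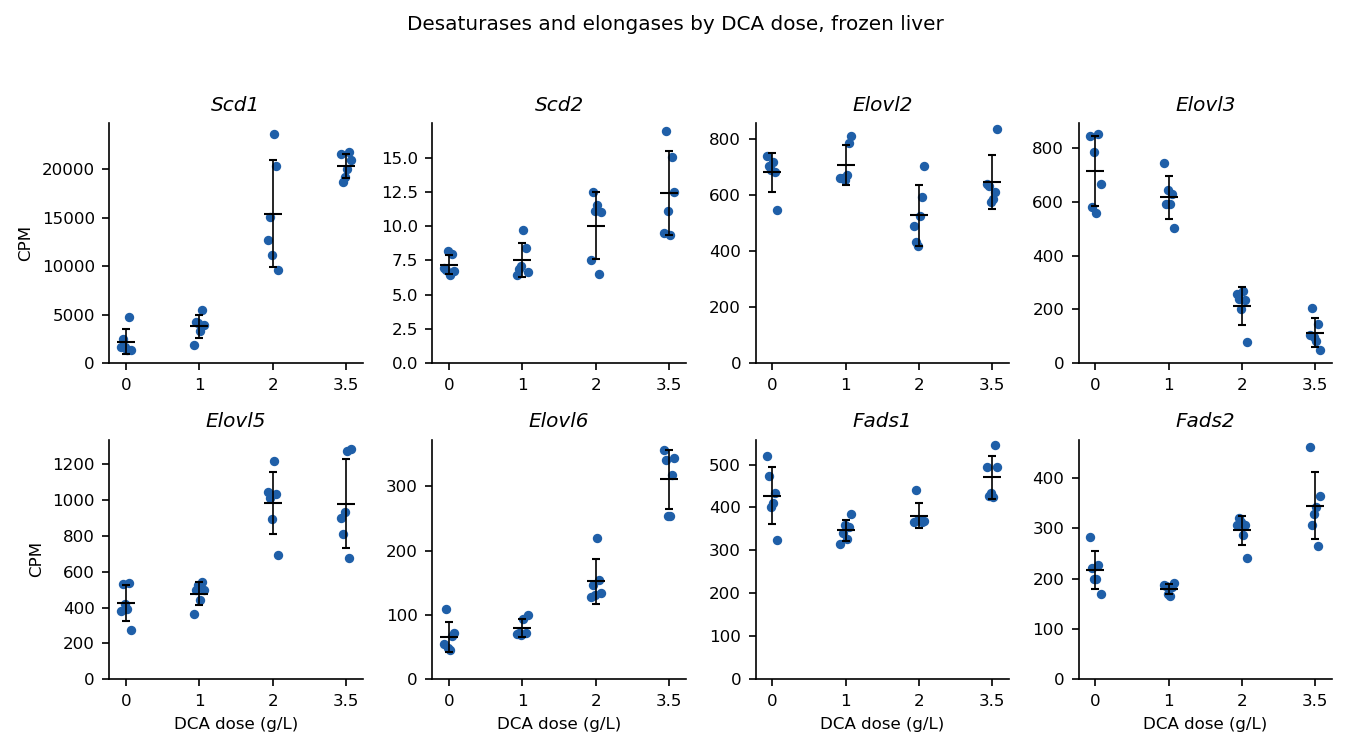
CPM of the 8 genes in frozen liver by DCA dose in g/L, with 1 point per library and mean ± SD as bars (n = 6 per dose). Scd1 steps up between 1 and 2 g/L (medians 4006 and 13893 CPM), Elovl6 goes on rising to 329 CPM at 3.5 g/L, Elovl3 falls to 100 CPM at 3.5 g/L, and Fads1 and Elovl2 overlap the controls at 3.5 g/L.

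The lone call at 1 g/L was Fads1, at 316, 349 and 385 CPM, against 325, 422 and 520 CPM in controls (log2 fold change -0.30 ± 0.09, adjusted p = 0.0316). This call ended when run was a term (log2 -0.35 ± 0.10, adjusted p = 0.052), without control 3 (0.0984), without control 4 (0.0635) or without any 1 of the 1 g/L animals 49, 50, 51 and 52 (0.0526 to 0.0692). At 2 g/L, leaving out the 3 libraries of the shallow lane left 4 of the 8 genes called and ended the calls of Scd2, Elovl2 and Fads2. Scd2 had a log2 fold change of 0.43 ± 0.19 without them (adjusted p = 0.12), against 0.46 ± 0.17 with them (adjusted p = 0.036), and Fads2 0.36 ± 0.14 (adjusted p = 0.0783), against 0.45 ± 0.11 (adjusted p = 0.00363). Elovl2 was at -0.17 ± 0.12 without them (adjusted p = 0.364), against -0.37 ± 0.11 with them (adjusted p = 0.0157). Scd2 was also lost at 2 g/L without any 1 of controls 3, 4, 6 and 8 or animals 74, 75, 76 and 78 (0.0582 to 0.105). At 3.5 g/L, 6 of the 8 genes were called when any 1 frozen library of 0 or 3.5 g/L was left out, control 5 included.

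Clock genes moved in the same DCA livers. Of 12 clock genes, 6 were raised and 4 lowered at 3.5 g/L, where 21.9% of all genes were raised and 21.1% lowered. Dbp rose by a log2 fold change of 3.93 ± 0.56 (adjusted p = 4.18e-06) from a low level. It had 1.52 to 27.2 CPM at 3.5 g/L, against 0.330 to 1.12 CPM in controls. Nr1d1 rose by 3.39 ± 0.21 (adjusted p = 9.81e-12) and Per3 by 2.59 ± 0.40 (adjusted p = 1.08e-05). The summed level of the 12 genes was 471 to 662 CPM, against 300.2 to 369 CPM in controls. Arntl had 4.96, 16.7 and 37.8 CPM (lowest, median and highest) at 3.5 g/L, against 34.7, 37.1 and 44.2 CPM in controls. The labels give no hour of collection, and the part of the clock genes in the Elovl3 result or any other was not tested. In DEHP frozen liver 0 of 12 clock genes were called by edgeR at 6000 ppm (2 at an unadjusted p under 0.05, 0 by DESeq2), where 11.8% of all genes were called. Their summed levels were 243 to 325 CPM there, against 257 to 317 CPM in controls.

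Several marker lists were lower at 3.5 g/L DCA, where 21.1% of all genes were lowered and 43% called. Of the markers tested, 7 of 9 Kupffer cell genes, 5 of 6 stellate cell genes, 3 of 7 endothelial genes and 4 of 4 red blood cell genes were lowered, as were 6 of 7 hepatocyte genes. Among the stellate cell genes Des had a wide spread in controls, at 14.5 ± 27.3 CPM (SD, n = 6). It averaged 2.60 CPM at 3.5 g/L, with only 2 libraries below every control. The summed Kupffer markers were at 158 to 238 CPM, against 291 to 401 CPM in controls, endothelial markers at 326 to 371 CPM, against 374 to 429 CPM, stellate cell markers at 412 to 546 CPM, against 510 to 766 CPM, and red blood cell markers at 305 to 616 CPM, against 499.8 to 1395 CPM. Bile duct markers summed to 24.0 to 36.0 CPM, against 26.3 to 35.3 CPM in controls, and lymphocyte markers to 11.01 to 39.7 CPM, against 14.04 to 17.7 CPM, with 0 genes of either list called by edgeR (0 at an unadjusted p under 0.05, 0 by DESeq2). Adipocyte markers, of interest because fat also expresses Scd1, summed to 14.9 to 24.6 CPM over 5 genes at 3.5 g/L, against 10.0 to 12.6 CPM in controls. Of that list 1 tested gene, the lipase Lipe, was raised (log2 0.76 ± 0.12, adjusted p = 2.18e-05). Lipe alone averaged 18.4 CPM at 3.5 g/L against 10.8 CPM in controls, so the sum was mostly Lipe. At 6000 ppm DEHP the adipocyte sum was 9.18 to 10.8 CPM over 4 genes with 1 of them at 0, against 4.38 to 6.80 CPM in controls. Lipe was again raised (log2 0.85 ± 0.21, adjusted p = 0.0126) and again made up most of the sum, with means of 9.90 and 5.51 CPM. At that dose 4 of 7 hepatocyte markers were lowered, where 4.72% of all genes were lowered and 11.8% called. The part of the marker genes in the results was not tested.

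In FFPE liver of the DCA study 7 of the 8 genes passed the count filter, all but Scd2, and 0 of these were called by edgeR at any dose (0, 2 and 2 at an unadjusted p under 0.05), where 0.126%, 0.335% and 0.293% of 4772 genes were called at 1, 2 and 3.5 g/L. Over all genes the median log2 fold change was -0.27, -0.67 and -0.68, against -0.01 to -0.02 in frozen liver. Scd1 had 889, 1371 and 2979 CPM (lowest, median and highest) in FFPE controls, 958, 2079 and 4317 CPM at 1 g/L, 2717, 3094 and 5330 CPM at 2 g/L and 1703, 4984 and 9290 CPM at 3.5 g/L. Its log2 difference at 3.5 g/L was 1.70 ± 0.57 (unadjusted p = 0.00288, adjusted p = 0.26). With DESeq2's size factors in edgeR it was called at 2 and 3.5 g/L (adjusted p = 0.000168 and 1.37e-05), and DESeq2 called it as well.

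Elovl3 had 0, 90.6 and 204 CPM at 3.5 g/L in FFPE liver, against 208, 307 and 342 CPM in FFPE controls, with no overlap and a log2 difference of -1.65 ± 0.74 (unadjusted p = 0.0257, adjusted p = 0.571). These values rest on 0 to 37 counts per library at 3.5 g/L, so counting error alone is large. The other 5 tested genes had log2 differences at 3.5 g/L between -0.81 (Elovl2) and 1.13 (Elovl6), with SEs of 0.67 to 0.93. The libraries of 2 and 3.5 g/L came from another sequencing run than the controls, and only the 1 g/L group held libraries of both runs, 3 of each. With run as a term the log2 difference of Scd1 was 1.05 ± 0.99 at 3.5 g/L and 0.66 ± 0.99 at 2 g/L, and that of Elovl3 was -2.92 ± 1.39 and -3.16 ± 1.40 (adjusted p = 0.658 to 1). Between FFPE and frozen liver of the DCA controls 0 of the 8 genes had an unadjusted p under 0.05 and 0 were called by edgeR, where 1.94% of 13226 genes were called, with Scd1 at a log2 difference of 0.38 ± 0.38 (adjusted p = 0.709) and a median of -0.70 over all genes.

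Both chemicals raised Scd1, Elovl5 and Fads2 in frozen liver, and the size of the top-dose response differed for 4 of the 8 genes. In a joint fit of the 40 frozen libraries, with each chemical set against its own controls, 13.3% of 13219 genes were called as differing between 6000 ppm DEHP and 3.5 g/L DCA. The log2 effect of DEHP minus that of DCA was -1.90 ± 0.45 for Scd1 (adjusted p = 0.0041), -1.82 ± 0.36 for Elovl6 (adjusted p = 0.000758) and 2.42 ± 0.37 for Elovl3 (adjusted p = 3.9e-05). Scd1 and Elovl6 thus rose less under DEHP than under DCA, and Elovl3 fell under DCA without being called under DEHP. For Fads1 the difference was 0.56 ± 0.17 (adjusted p = 0.0212), but it was not called without DEHP control 75A (0.0662) or without 8C of 6000 ppm (0.0569).

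The effects on Elovl5 and Fads2 were not shown to differ between the chemicals, with differences of -0.26 ± 0.31 (adjusted p = 0.617) and 0.53 ± 0.20 (adjusted p = 0.0754). Fads2 was called without any 1 of DCA animals 8 and 100 or DEHP animals 32A, 45C and 64C (0.0293 to 0.0492). Scd2 and Elovl2 gave 0.07 ± 0.36 (adjusted p = 0.922) and -0.16 ± 0.21 (adjusted p = 0.672). Dose scale, route and year of collection differ between the studies and cannot be told apart from the chemical.

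**Figure D4:**
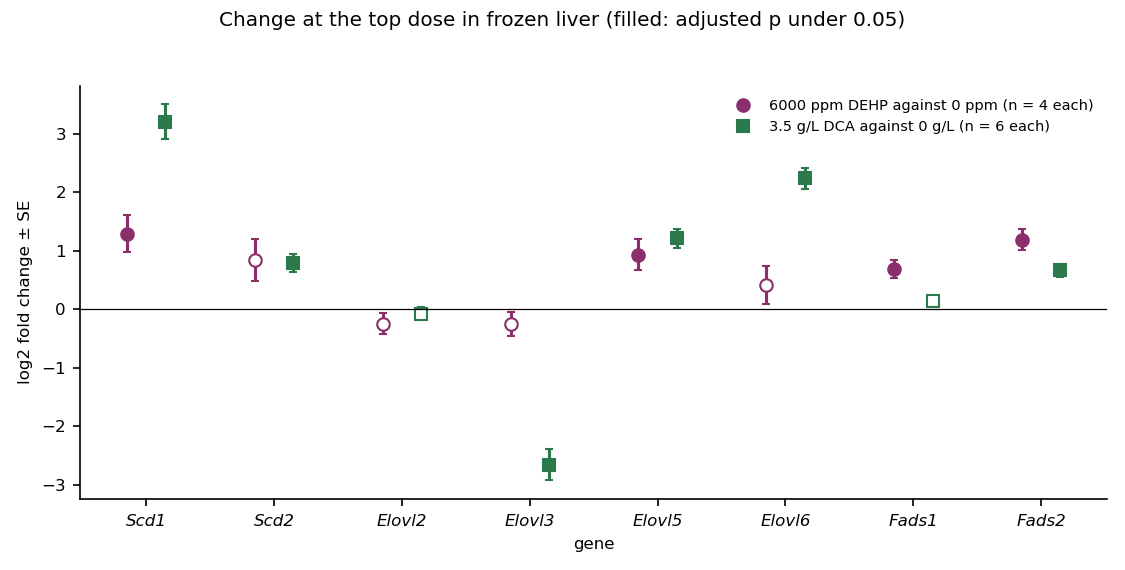
Log2 fold change with SE of the 8 genes in frozen liver, at the top dose of each chemical against its own dose 0. DCA has the larger values for Scd1 (3.21) and Elovl6 (2.24) and the lower value for Elovl3 (-2.65), while Elovl5 is close in both chemicals.

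The families hold 9 other genes looked up here (Scd3, Scd4, Elovl1, Elovl4, Elovl7, Fads3, Fads6, Degs1 and Degs2). In frozen liver edgeR called 0 of 6 tested at 6000 ppm DEHP and 0 of 4 tested at 3.5 g/L DCA (0 and 0 at an unadjusted p under 0.05, 0 and 0 by DESeq2). Of all genes 11.8% and 43% were called there. At 3000 ppm DEHP 1 of 6 was lowered, where 14.7% of all genes were called. These small counts were not tested against the shares over all genes. Elovl1, an elongase of very long saturated chains, averaged 23.1 CPM at 6000 ppm DEHP against 19.9 CPM in controls, and 38.7 CPM at 3.5 g/L DCA against 42.7 CPM in controls. Degs1, the ceramide desaturase, averaged 58.0 CPM at 6000 ppm DEHP against 53.3 CPM in controls, and 58.6 CPM at 3.5 g/L DCA against 59.4 CPM in controls.

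Of 5 tested enzymes that complete the elongation cycle, 3 were raised and 0 lowered at each top dose in frozen liver, where 7.05% of all genes were raised at 6000 ppm DEHP and 21.9% at 3.5 g/L DCA: Ptplad1 and Ptplb, hydroxyacyl-CoA dehydratases, and Hsd17b12, the ketoacyl-CoA reductase. At 6000 ppm DEHP their log2 fold changes were 1.19 ± 0.15, 0.43 ± 0.09 and 0.84 ± 0.12 (adjusted p = 6.15e-05, 0.00478 and 0.000191), and at 3.5 g/L DCA 0.88 ± 0.14, 0.71 ± 0.08 and 0.32 ± 0.09 (adjusted p = 1.51e-05, 5.45e-08 and 0.00763), in the order of these names. Of 5 genes of the cytochrome b5 chain that passes electrons to desaturases, 1 was raised at 6000 ppm DEHP, Cyb5b (log2 0.62 ± 0.15, adjusted p = 0.0148), and 2 at 3.5 g/L DCA, Cyb5b (0.40 ± 0.08, adjusted p = 0.000483) and Cyb5 (0.30 ± 0.08, adjusted p = 0.00401). The 2 of 5 called at 3.5 g/L are near the 43% of all genes called there.

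Among acyl-CoA synthetases and phospholipid acyltransferases, which activate fatty acids and put them into membranes, 4 of 10 tested genes were raised and 0 lowered at 6000 ppm DEHP (7.05% of all genes raised), and 6 of 9 raised and 0 lowered at 3.5 g/L DCA (21.9% of all genes raised). Acsl1 rose by a log2 fold change of 1.41 ± 0.31 under DEHP (adjusted p = 0.00654) and 1.16 ± 0.14 under DCA (adjusted p = 6.25e-07), and Lpcat3, which puts polyunsaturated fatty acids into phospholipids, by 1.39 ± 0.25 (adjusted p = 0.00168) and 1.13 ± 0.12 (adjusted p = 6.88e-08). In palmitate synthesis 3 of 8 genes were raised at 6000 ppm DEHP and 4 of 8 at 3.5 g/L DCA, with 0 lowered, beside the same 7.05% and 21.9% of all genes raised. Me1, which supplies NADPH, rose by 2.402 ± 0.34 (adjusted p = 0.000246) under DEHP and 2.09 ± 0.19 (adjusted p = 6.79e-09) under DCA. Acss2 and Acacb completed the DEHP calls, at 1.08 ± 0.33 and 1.05 ± 0.30 (adjusted p = 0.0406 and 0.0332), and under DCA Acaca, the acetyl-CoA carboxylase of fatty acid synthesis, and Fasn, the fatty acid synthase, rose by 1.17 ± 0.13 and 1.06 ± 0.20 (adjusted p = 5.56e-08 and 0.000143).

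Of 14 transcription factors and processing proteins tied to these genes, 0 were called at 6000 ppm DEHP by edgeR (2 at an unadjusted p under 0.05, 1 by DESeq2), where 11.8% of all genes were called. At 1500 ppm 2 were raised (6.48% of all genes called), and at 3000 ppm 1 was raised and 2 lowered (14.7%). At 3.5 g/L DCA 4 were raised and 2 lowered, a share close to the 43% of all genes called there. Srebf1, which encodes the SREBP-1 factors, rose by a log2 fold change of 1.19 ± 0.24 (adjusted p = 0.000241), Pparg by 1.14 ± 0.35 (adjusted p = 0.00997) and Srebf2, the factor of the cholesterol pathway, changed by -0.60 ± 0.11 (adjusted p = 0.000143). Pparg was at a low level, averaging 1.62 CPM at 3.5 g/L and 0.727 CPM in controls, with 5 of 6 treated libraries above every control.

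For each member the gene of closest pattern over the frozen libraries was taken. Likeness was measured by Pearson's r of log2 CPM, as a description across libraries that share doses, and r was taken again after the mean of each dose was removed. Elovl5 was most like Acsl5, a long-chain acyl-CoA synthetase, in both studies (r = 0.964 over 16 DEHP libraries, 0.929 within doses, and r = 0.955 over 24 DCA libraries, 0.858 within doses). Elovl6 was most like Acaca in both (r = 0.938 and 0.938 within doses for DEHP, 0.965 and 0.783 for DCA). Scd1 was most like Ugt1a5 under DEHP (r = 0.940, 0.875 within doses) and Me1 under DCA (r = 0.968, 0.787 within doses).

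The closest genes for the others differed between the studies. For Fads1 they were Acsl5 under DEHP (r = 0.926, 0.773 within doses) and Neat1 under DCA (r = 0.808, 0.675 within doses), and for Fads2 H2-Q10 (r = 0.938, 0.792 within doses) and Mapre3 (r = 0.935, 0.664 within doses). For Elovl3 they were Pm20d2 under DEHP (r = 0.759, 0.706 within doses) and Mup21, a major urinary protein gene, under DCA (r = 0.957, 0.820 within doses). For Elovl2 they were Rmnd5a (r = 0.838, 0.895 within doses) and Cyp3a59 (r = 0.836, 0.744 within doses), and for Scd2 Fabp5 (r = 0.794, 0.823 within doses) and Cxadr (r = 0.861, 0.635 within doses), DEHP first in each pair.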

How the data were processed

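RNA of 80 liver libraries was sequenced with a stranded total RNA kit after removal of ribosomal RNA, per the labels. CASAVA, STAR 2.4, RSEM and mm10 are named in the submitters' processing notes. The count tables hold expected counts as deposited by the authors, without normalization, for 18877 genes (DEHP) and 17672 genes (DCA); whole numbers were made from these by rounding. The authors also deposited FPKM values, used for levels per length, and RPKM values, used as an alternative. The strand setting of the counting is not given in the sources used here.

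The 4 dose groups of each chemical and preparation went into 1 fit with edgeR 4.0.16 in R 4.3.3 (limma 3.58.1), after filterByExpr with a minimum count of 10 and TMM factors, and its quasi-likelihood test gave the p-values. Each SE was taken as |log2 fold change| over the root of F. CPM values use the TMM library sizes. FFPE and frozen liver were compared with the animal as replicate block, because both libraries carry the same animal identifier. In deviations from the dose means, 13 of 16 DEHP animals and 13 of 24 DCA animals correlated best with their own partner (median r 0.388 and 0.0414). Alternatives tried were the test of DESeq2 1.42.0, scaling by DESeq2 or by upper quartiles, other filters and deposited count tables, an adjusted p under 0.01, run as a term, fewer groups in the fit, dropping the block and dropping single libraries. Leaving out the shallow lane, fitting 1 run and fitting control animals alone were added after the data were seen.

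The members and gene lists were chosen with earlier results of these data known. All 8 members were looked at in each comparison, whether called or not, though not every value is printed. Of every other list at most the 3 called genes of largest change at the top dose were named, and for each member the gene with the highest r, leaving out predicted genes and those whose mean log2 CPM was under 2. Arntl, Elovl1 and Degs1 were named after their values were seen. The fits were tested on simulated data.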

Additional observations from a re-analysis of the deposited data

Results flagged for a closer look

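In 15 of 128 groups of 4 or 6 libraries 1 library stood far from the others by Dixon's test, which chance gives in about 1 of 20 groups. In DEHP frozen liver this was Elovl2 in 44A (6000 ppm), the lowest at 479.8 CPM. In DEHP FFPE liver it was control 75A, the highest for Scd2 at 11.7 CPM and the lowest for Fads2 at 122 CPM, and 9A (3000 ppm), the highest for Elovl2 at 985 CPM and for Elovl6 at 226 CPM. In DCA frozen liver control 7 was the highest for Scd1 at 4725 CPM, control 8 the lowest for Elovl2 at 547 CPM and 99 (3.5 g/L) the highest for Elovl2 at 834 CPM. At 2 g/L it was 78, the lowest for Elovl3 at 77.5 CPM, 76, the highest for Elovl6 at 219 CPM, and 74, the highest for Fads1 at 440.3 CPM. In DCA FFPE liver it was control 7, the highest for Scd1 at 2979 CPM, control 3, the highest for Scd2 at 25.4 CPM and for Fads2 at 276 CPM, and 73 (2 g/L), the highest for Elovl5 at 564 CPM. Control 7 was thus the highest Scd1 control in both preparations.

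The top-dose effect of DEHP differed from that of DCA by edgeR's test of the difference, by -1.90 for Scd1, 2.42 for Elovl3, -1.82 for Elovl6 and 0.56 for Fads1 on the log2 scale.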

How the results depend on the processing

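At an adjusted p under 0.01 the members called were 2, 0 and 2 at 1500, 3000 and 6000 ppm DEHP in frozen liver, 2 at 1500 ppm and 2 at 6000 ppm in FFPE liver, 0 at 1 g/L DCA and 1 between 3.5 and 2 g/L DCA in frozen liver. With sequencing run as a term they were 1, 0 and 1 at the 3 DEHP doses in frozen liver, with larger SEs, 3, 4 and 4 in FFPE liver, and 0 at 1 g/L DCA. In fits of the compared groups only they were 2 at 3000 ppm DEHP in frozen liver, 1 at 3000 ppm and 2 at 6000 ppm in FFPE liver, and 0 at 1 g/L DCA, where libraries of 1 run alone also gave 0. Without the shallow lane there were 4 at 2 g/L and 1 between 3.5 and 2 g/L. In DCA FFPE liver DESeq2 and its size factors in edgeR each called 1 member at 2 g/L and 1 at 3.5 g/L. The cause of these changes was not tested. The shares of all genes called in these and the following alternative fits are not given here. Whether the member counts followed those shares was not tested.

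The comparison of FFPE with frozen DEHP controls gave 0 members without the replicate block and 3 with control animals only. The size factors of DESeq2 gave 1 in the DCA study. Log2 values that changed sign were all of genes not called. They were -0.32 for Elovl5 with run as a term and 0.19 and 0.22 for Fads1 with DESeq2's size factors and DESeq2 (DCA FFPE 3.5 g/L), and 0.0186 for Elovl2 in control animals only. Without the replicate block, the Scd2 response in FFPE minus frozen DEHP liver was -0.0520, and in the DCA controls FFPE against frozen gave 0.67 for Scd2 and 0.0654 for Fads2. With DESeq2's size factors the DCA values were 0.45 for Scd2, 0.15 for Elovl3 and 0.43 for Fads2.

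Leaving out 1 library at a time gave 3 to 4, 0 to 4 and 2 to 5 members called at 1500, 3000 and 6000 ppm DEHP in frozen liver and 2 to 4 at each dose in FFPE liver, with 0 between neighbouring doses. In DCA frozen liver it gave 0 to 2, 6 to 7 and 6 to 6 at 1, 2 and 3.5 g/L, 6 to 7 between 2 and 1 g/L and 1 to 3 between 3.5 and 2 g/L, and in DCA FFPE liver 0. FFPE against frozen gave 1 to 1 (DEHP) and 0 (DCA), the DEHP response between preparations 0, and DEHP against DCA 3 to 5. Sign changes were limited to genes not called: at 6000 ppm in FFPE liver Elovl3 (-0.25 to 0.11) and Elovl6 (-0.16 to 0.75), at 3.5 g/L in FFPE liver Elovl5 (-0.0837 to 0.39) and Fads2 (-0.0741 to 0.51), and DEHP against DCA Scd2 (-0.42 to 0.31). FFPE against frozen, they were Scd1 (-0.31 to 0.0472), Scd2 (-0.19 to 0.36), Elovl2 (-0.0507 to 0.0577) and Elovl3 (-0.0688 to 0.0137) in DEHP controls, and Scd2 (-0.65 to 0.46), Elovl5 (-0.0712 to 0.0830) and Fads1 (-0.0693 to 0.11) in DCA controls. For the DEHP response between preparations they were Scd1 (-0.0825 to 0.28), Scd2 (-0.0562 to 0.46), Elovl5 (-0.0514 to 0.15) and Elovl6 (-0.17 to 0.0461).

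Scaling by upper quartiles was not run in DCA FFPE liver, and run as a term was used in the dose comparisons alone. Depth limits the DCA FFPE comparisons, whose libraries of 2 and 3.5 g/L held at most 653006 counts.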
